A study of Mus musculus with 2 samples.

Results

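The mast cell and basophil genes described here are Cpa3, Mcpt8, Prss34, Hdc, Ms4a2 and Gata2. They were chosen by name, with earlier results of these data known, so their ranks and counts below are descriptions. Each of the 6 genes had 1 probe set with a single gene symbol in the platform annotation, so they stand for 6 of 41345 probe sets and 6 of 22180 named genes. The 2 samples, titled GMDC, are labelled as dendritic cells derived from mouse bone marrow. One was the control culture, and the other was grown in medium conditioned by topotecan-treated E0771 cells, a mouse mammary tumour line. Topotecan inhibits topoisomerase I. The sources used here do not give strain, age or time in culture, nor the medium of the control. An effect of the drug treatment therefore cannot be told apart from an effect of tumour cell medium. The study was set up to compare expression under this medium with the control.

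There was 1 array per condition. Values therefore carry no replicate error, and no test was possible. Values are log2 intensities as deposited, with the log base inferred from their range, and a difference is conditioned medium minus control. The medians of the arrays were nearly equal, at 4.10 (control) and 4.09. A gene was kept where the higher of its 2 values reached 4.10, the median of all values, below which signal may be background; this kept 13712 genes. Genes were counted when the difference reached 2-fold, which is 1 on the log2 scale. Intensities of different probe sets are not on one scale, so only differences are compared between genes.

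Mast cells and basophils are granule-bearing cells of the allergic and antiparasite response. They bind IgE through the high-affinity receptor FcεRI and, when it is cross-linked, release histamine, proteases and lipid mediators. Both arise from bone marrow progenitors under factors that include GATA2. Bone marrow cultures grown for dendritic cells begin from such mixed progenitors. In bulk RNA, fewer cells of a type and less RNA per cell cannot be told apart.

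Among the 6 genes, the granule protease genes Cpa3 and Prss34 were at least 2-fold lower with conditioned medium and Hdc, the gene of the histamine-forming enzyme, was at least 2-fold higher. Mcpt8, Ms4a2 and Gata2 lay between. Of all 13712 kept genes, 6.84% were at least 2-fold lower and 8.63% at least 2-fold higher. The differences of the 6 ran from -2.81 to 2.93 with a median of -0.41, beside a median of -0.07 and quartiles of -0.45 and 0.36 over all kept genes. All 6 passed the filter, but Cpa3 passed only through its control value and Hdc only through its value with conditioned medium.

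**Figure D1:**
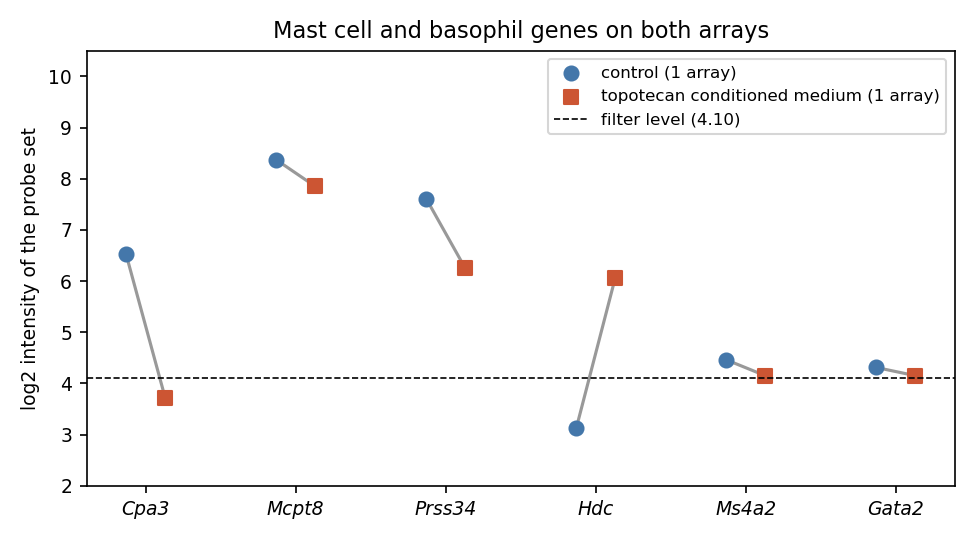
Log2 intensity (vertical axis) of the 1 probe set of each gene on the control array (circles) and the conditioned-medium array (squares), with the filter level of 4.10 dashed. Cpa3 crosses the level downward and Hdc upward, Mcpt8 and Prss34 stay above it on both arrays, and Ms4a2 and Gata2 lie close to it. Heights of different genes are not comparable.

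Cpa3 encodes carboxypeptidase A3, a granule exopeptidase of mast cells that basophils and their precursors also make. Its log2 intensity was 6.52 on the control array and 3.72 on the other. The control value stood 2.42 above the filter level and the other value lay 0.38 below it. The difference of -2.81 is a 7.0-fold lower intensity, or 5.36-fold lower when the value under the filter level is raised to that level. As deposited, 49 of the 13712 kept genes (0.357%) had a difference this low or lower, Cpa3 included. With all values under the filter level raised to it, 71 (0.518%) lay at or below Cpa3. When kept genes were split by mean level into 3 equal groups (low, middle and high), Cpa3 lay in the middle group, in which 7.24% were at least 2-fold lower and 8.75% higher, and the 5th percentile of the difference was -1.21.

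Prss34 and Mcpt8 encode serine proteases that are, in the mouse, made mainly by basophils. Prss34 had 7.61 on the control array and 6.25 with conditioned medium, both well above the filter level, so that its intensity was 2.56-fold lower. Of the kept genes, 444 (3.24%) had a difference at or below its -1.36. Mcpt8 had 8.37 and 7.85, a 1.44-fold lower intensity that did not reach 2-fold. For Mcpt8, 20.8% of kept genes lay at or below its difference of -0.52. Both genes lie in the high group by mean level, in which 9.01% of genes were at least 2-fold lower and 12.9% higher, and the 5th percentile of the difference was -1.29. The difference of Prss34 lay just beyond that percentile and that of Mcpt8 did not.

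Hdc encodes histidine decarboxylase, the enzyme that makes histamine from histidine. Mast cells and basophils are its best-known sources, and other myeloid cells also make it when stimulated. Its log2 intensity was 3.12 in the control, 0.97 below the filter level, and 6.06 with conditioned medium. The difference of 2.93 is 7.63-fold higher as deposited and 3.88-fold higher against the filter level. As deposited, a difference this high or higher was found in 163 kept genes (1.19%), Hdc included. With all values under the filter level raised to it, 357 (2.60%) lay at or above Hdc. In the low group by mean level, which holds Hdc, Ms4a2 and Gata2, 4.22% passed 2-fold upward and 4.27% downward, and the 95th percentile of the difference was 0.93.

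Ms4a2 encodes the beta chain of FcεRI, which amplifies signalling from the receptor, and Gata2 the zinc finger factor required by mast cells, basophils and early blood progenitors. Ms4a2 had 4.46 without and 4.15 with conditioned medium, and Gata2 had 4.31 and 4.15. These values stood 0.36 and 0.06 above the filter level for Ms4a2, and 0.21 and 0.05 for Gata2. Signal so close to the level may be background on both arrays. The differences were -0.30 and -0.15, at or above those of 33.2% and 44.5% of kept genes. With signal so low, a fall in either transcript, or a small rise, may not be detectable.

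**Figure D2:**
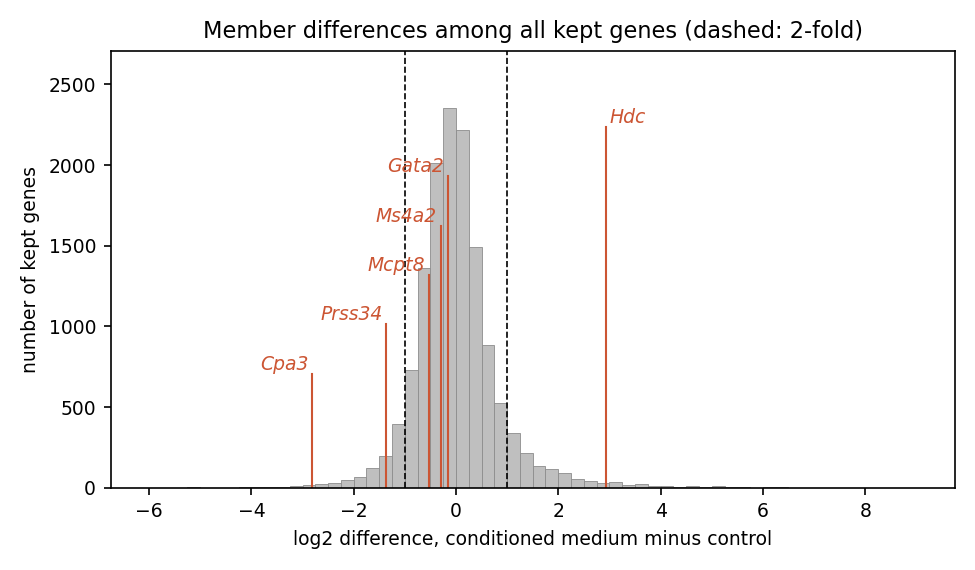
Number of kept genes (vertical axis) by log2 difference, conditioned medium minus control (horizontal axis, in steps of 0.25), with each of the 6 genes marked by a line whose height has no meaning and 2-fold dashed. Cpa3 and Hdc lie in opposite tails at -2.81 and 2.93, Prss34 lies outside the lower 2-fold line, and the other genes lie within the bulk of the distribution.

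The only spread that could be measured was that between probe sets of other genes, since none of the 6 has a further probe set. Over genes with several probe sets above the filter, differences of the same gene had a pooled SD of 0.46 (787 degrees of freedom). The differences of Cpa3, Prss34 and Hdc were larger than this SD, that of Mcpt8 was close to it, and those of Ms4a2 and Gata2 were smaller. This SD is a spread between probe sets on the same arrays. It does not hold error shared by all probe sets of a gene, or the spread between cultures.

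GATA factors bind the letters GATA with an A or T before and an A or G after them. Promoter windows from RefSeq (build GRCm38.p6), 250 bases before to 50 after a start, were searched on both strands for AGATAA and its variants with T first (TGATAA), with G last (AGATAG) or with both changes (TGATAG). At least 1 match was present for 4 of the 6 genes, Cpa3, Prss34, Hdc and Ms4a2, and for 8930 of 27025 genes with a window (33.0%). The Mcpt8 window and both windows of Gata2 held none of these letters. The stretch around 1 match of each of the 4 genes is shown. Their differences ran in both directions, and that of Ms4a2 was only -0.30. A relation of the motif to the differences was not tested. Capitals mark the motif, each line reads 5′ to 3′ on the strand of its gene, and TTATCT is AGATAA read on the other strand.
Cpa3: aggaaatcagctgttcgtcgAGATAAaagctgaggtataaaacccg
Prss34: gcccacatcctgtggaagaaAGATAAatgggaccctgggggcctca
Ms4a2: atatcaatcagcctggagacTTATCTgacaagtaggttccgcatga
Hdc: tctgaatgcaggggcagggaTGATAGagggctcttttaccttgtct
The Cpa3 stretch is chr3:20242202-20242247 on the minus strand, and its motif begins 46 bases before the start. The Prss34 stretch is chr17:25298343-25298388 on the plus strand, with the motif 31 bases before the start. For Ms4a2 (chr19:11623731-11623776, minus strand) the motif shown begins 37 bases before the start, and it is 1 of 3 matches in the window. For Hdc (chr2:126618874-126618919, minus strand) it begins 221 bases before the start. The other matches of Ms4a2 begin 224 and 11 bases before the start. A match of letters is a description of the sequence and not evidence of binding.

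Mcpt8, Prss34 and Ms4a2 lie in clusters of related genes, and nearby relatives did not share one difference. Ctsg, the gene of the myeloid granule protease cathepsin G, is the next protein-coding gene to Mcpt8 and was 17.5-fold lower (9.25 and 5.12). On the other side of Mcpt8, the mast cell protease genes Mcpt4, Mcpt9 and Mcpt2 were under the filter level on both arrays, as were Prss28, Prss29 and Tpsb2 beside Prss34. Beside Ms4a2, the next gene Ms4a3, which marks granulocyte and monocyte progenitors, was 6.71-fold lower (7.45 and 4.70), whereas Ms4a4d, also of the same membrane protein family, was 4.57-fold higher (7.03 and 9.22). Ms4a6d, the nearest gene on that side, had 11.07 and 11.16. Of the 3 protein-coding neighbours on each side of Hdc, 5 of 6 were kept and none reached 2-fold. The largest of these differences was 0.97, for Dtwd1. Near Cpa3, 4 of 6 neighbours were kept, with differences from -0.48 for Hltf to 0.19 for Gyg. Relatives of similar sequence could share probe signal, which was not tested.

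Genes that work with the 6 in these cells were set beside them in 6 lists by role. Counting each gene once, 93 of 97 were measured and 72 kept. At least 2-fold lower were 9 and at least 2-fold higher 20, with 43 between, and the median difference was 0.23. Of all kept genes, 6.84% were at least 2-fold lower and 8.63% higher, shares that also stand beside the counts of each list below. Many of these genes are also used by dendritic cells, macrophages and neutrophils. Which cells their differences came from was not tested.

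Of 12 kept genes of the IgE receptor and its signalling, 4 were at least 2-fold lower, 0 higher and 8 between, with a median of -0.71. Differences were below 0 in 8 of the 12, beside 54.0% of all kept genes. Against the filter level 3 were at least 2-fold lower, without Fcer1a. Fcer1a, which encodes the IgE-binding chain, had 4.39 in the control and 3.09 with conditioned medium, 2.47-fold lower as deposited. Since the control value was itself near the filter level, the difference against that level was only -0.29. Fcer1g, the signalling chain shared with other Fc receptors, was high on both arrays (12.13 and 12.18), where saturation could hide a difference. The tyrosine kinase gene Btk was 2.26-fold lower, the adaptor gene Lat 2.12-fold and the phospholipase gene Plcg2 2.06-fold. Plcg2 no longer reached 2-fold when the arrays were centred on kept genes (-0.97). The highest were the adaptor genes Grap2 (0.80, from a control value under the filter level) and Lcp2 (0.27).

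Among granule proteases and their matrix, 8 of 14 measured genes were under the filter level on both arrays. These were the tryptase genes Tpsab1 and Tpsb2, the chymase genes Cma1 and Cma2, and Mcpt1, Mcpt2, Mcpt4 and Mcpt9. Of the 6 kept, 1 was at least 2-fold lower (Ctsg), 2 were higher and 3 lay between, with a median of 0.04. Srgn, which encodes the proteoglycan core serglycin that holds granule proteases, was 2.68-fold higher (9.62 and 11.05). Gzmb, the granzyme B gene, was 2.57-fold higher as deposited (3.21 and 4.57) and 1.39-fold against the filter level. The tryptase relative Tpsg1 passed the filter through its control value (4.50 and 3.98), with a difference of -0.52.

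Receptors differed in both directions, with 7 of 17 kept genes past 2-fold upward, 2 downward and 8 between (median 0.36). Il3ra, the specific chain of the receptor for interleukin-3, a growth factor of basophils and mast cells, was 3.25-fold higher (7.65 and 9.35). Csf2rb, the chain it shares with the GM-CSF receptor, was 2.82-fold higher (5.45 and 6.95). Cd200r3, a receptor of basophils and mast cells, was 2.63-fold higher (5.31 and 6.71). The others past 2-fold were the integrin gene Itgb7 (6.10-fold), the interleukin-18 receptor gene Il18r1 (3.43-fold), the TSLP receptor gene Crlf2 (2.95-fold) and Enpp3, an ectoenzyme used as a basophil activation marker (2.93-fold). The chemokine receptor gene Ccr2 was 5.59-fold and the complement receptor gene C5ar1 3.89-fold lower. Kit, the stem cell factor receptor gene used here as a mast cell marker, was under the filter level on both arrays (4.01 and 3.55). Il1rl1 was not analysed here.

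Of 9 kept genes of histamine, serotonin and lipid mediators, 2 passed 2-fold upward, 0 downward and 7 lay between (median 0.10). Ptgs2, the inducible cyclooxygenase gene, was 16.6-fold higher (3.41 and 7.47), or 10.3-fold against the filter level. Slc6a4, the serotonin transporter gene, was 6.93-fold higher (4.43 and 7.22). Slc18a2, whose product loads histamine and other amines into granules, had 4.96 and 4.15. Its difference of -0.81 was opposite in sign to that of Hdc, but its value with conditioned medium lay close to the filter level. Alox5ap, needed to make leukotrienes, had a difference of -0.80.

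Of 19 kept transcription factors of the lineage, 3 passed 2-fold upward, 2 downward and 14 lay between (median 0.34). Nfil3 was 2.97-fold and Bhlhe40, which basophils and mast cells use for cytokine production, 2.11-fold higher. Ikzf2 was 2.24-fold higher as deposited, but by only 0.06 on the log2 scale against the filter level. Lyl1, a haematopoietic partner of GATA factors, was 4.17-fold lower (7.02 and 4.96). Mitf, the mast cell and melanocyte factor, was at the limit, 2.0-fold lower (6.79 and 5.79), and did not reach it after centring (-0.93). Gata1, which acts with GATA2 in this lineage, had 4.21 and 4.75.

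Cytokines that mast cells and basophils can make, but that dendritic cells and macrophages also make, were mostly higher. Of 9 kept, 6 were at least 2-fold higher and 0 lower. The median was 2.64, or 0.95 when the 4 under the filter level were included. Il6 (169-fold), Osm (8.61-fold), Csf1 (7.05-fold), Tnf (6.46-fold), Ccl4 (6.23-fold) and Ccl3 (2.21-fold) were the 6, and Lif had a difference of 0.89. The cytokines more typical of basophils and mast cells were near or under the filter level. Il4 had the same value on both arrays (4.11), as did 4.16% of all probe sets, and Il13 had 3.18 and 4.13.

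**Figure D3:**
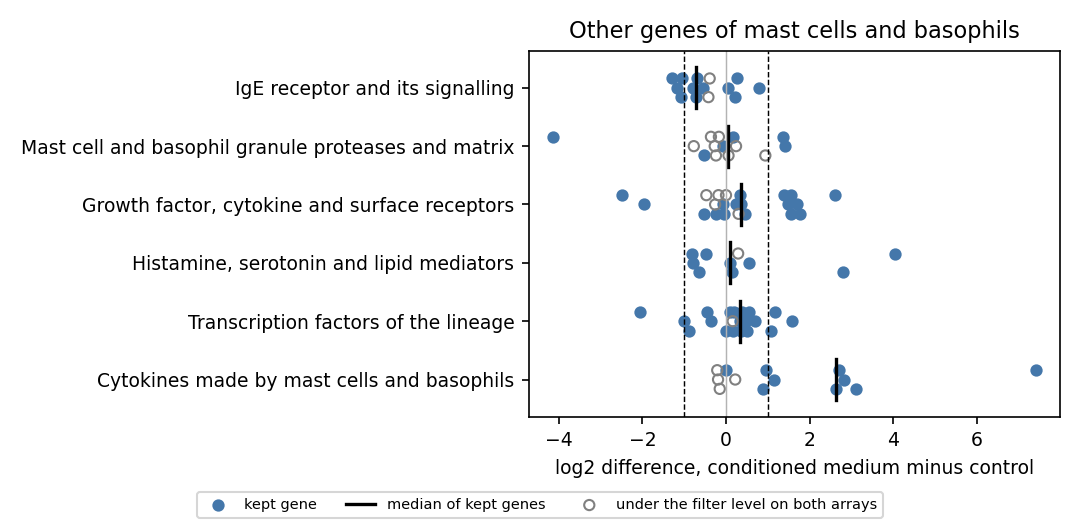
Log2 difference, conditioned medium minus control (horizontal axis), of each measured gene in the 6 lists by role; filled points are kept genes, open points are genes under the filter level on both arrays, bars are medians of kept genes and dashed lines mark 2-fold. The cytokine list has the highest median (2.64), the IgE receptor list the lowest (-0.71), and 8 of 14 granule protease genes are open points.

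Markers of the cell types were compared to see what the 6 genes moved with. The 10 mast cell markers, Kit, tryptases, chymases, Mrgprb1, Mrgprb2 and Rgs13 among them, were all under the filter level, from 1.86 to 4.01 in the control and 2.0 to 3.79 with conditioned medium. The arrays thus gave no signal above the filter level for these markers. The result depends on the list, since Cpa3, Hdc, Ms4a2, Fcer1a and Tpsg1 were not on it and passed the filter. Basophil markers other than Mcpt8 and Prss34 did not lie on one side: of 5 kept, 1 was at least 2-fold lower as deposited (Fcer1a) and 2 higher (Il3ra and Cd200r3), with a median of 0.54. Their mean log2 intensity over the 6 measured was 4.81 without and 5.17 with conditioned medium.

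On the array on which Cpa3 and Prss34 were lower, about as many neutrophil and myeloid progenitor markers passed 2-fold downward as did not. Of all kept genes, 6.84% did. These lists were not alone in this, since macrophage and monocyte markers, described below, had a lower median (-2.29). Of 12 neutrophil markers, 6 were at least 2-fold lower and 0 higher (median -1.29), from Camp (-5.54, or -4.47 against the filter level) to Csf3r (0.89), with 9 of the 12 below 0. Their values ran from 5.35 to 12.16 in the control and from 3.03 to 10.53 with conditioned medium. Of 10 progenitor markers, 6 were at least 2-fold lower and 1 higher (median -1.46), from Ctsg (-4.13) to Sox4 (1.22). A second probe set of Sox4 had a difference of 0.79, short of 2-fold. Ctsg is the same gene named above beside Mcpt8 and among the granule proteases. Differences were below 0 in 6 of the 10. Values of the 10 ran from 3.70 to 9.25 in the control and from 3.15 to 7.65 with conditioned medium. Against the filter level 5 progenitor markers were lower, without Flt3 (-1.23 as deposited, -0.28 against the level). Of 5 kept eosinophil markers, 2 were at least 2-fold lower and 0 higher; against the filter level only Prg2 was, since Prg3 went from -1.58 to -0.86. Prg2, which encodes a major basic protein of eosinophil granules, was 15.3-fold lower (9.55 and 5.61). Siglecf had the same value on both arrays (5.24), as did 4.16% of all probe sets. The eosinophil markers measured ran from 3.06 to 9.55 and from 2.97 to 5.61. The part of these other cells in the differences of Cpa3 and Prss34 was not tested.

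Of 9 macrophage and monocyte markers, 5 were at least 2-fold lower and 1 higher (median -2.29), from Chil3 (-2.99) to Ly6c2 (1.18). Of 5 kept megakaryocyte and erythroid markers, a lineage that also uses GATA2, 0 reached 2-fold, from Ppbp (-0.45) to Itga2b (0.36). For dendritic cells, the cell type named by the label, 11 of 12 measured markers were kept. Itgax, the gene of CD11c, had 8.18 and 7.15 and the MHC class II gene H2-Ab1 10.16 and 11.30, while Zbtb46 was under the filter level (3.65 on both arrays). Of 11 kept, 4 were at least 2-fold lower and 4 higher (median -0.17), from Batf3 (-2.03) to H2-Aa (1.88). Flt3 is again 1 of the 4 lower, and 3 were lower against the filter level.

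**Figure D4:**
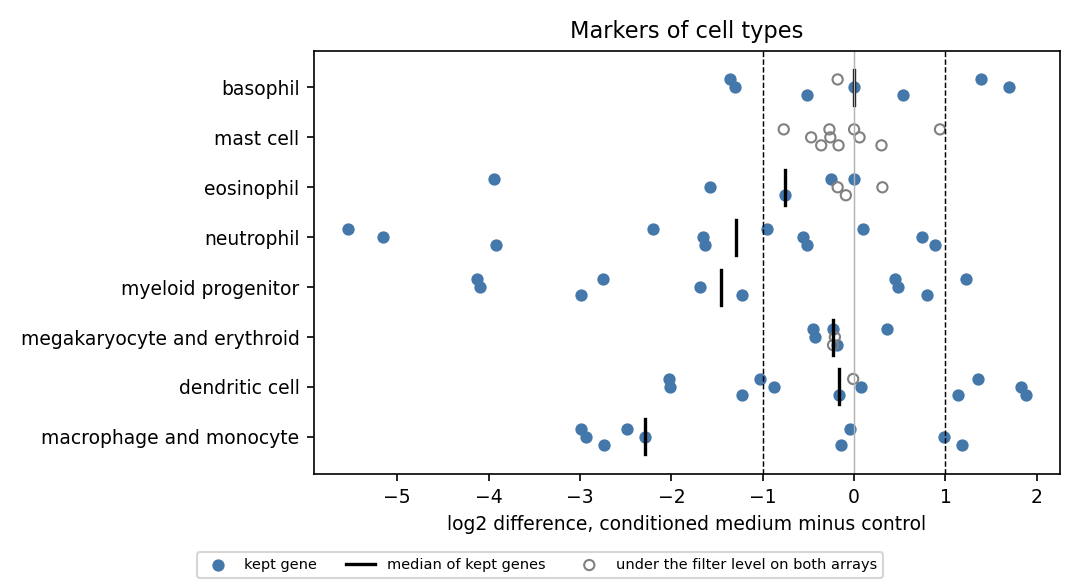
Log2 difference, conditioned medium minus control (horizontal axis), of each measured marker by cell type, with symbols, bars and dashed lines as in the plot of the lists by role. All 10 mast cell markers are open points, basophil markers (Mcpt8 and Prss34 included) lie on both sides of 0, and the macrophage and monocyte (-2.29), myeloid progenitor (-1.46) and neutrophil (-1.29) lists have the lowest medians.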

How the data were processed

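The authors deposited 1 table of log2 intensity per probe set for 2 arrays, 1 per condition. Total RNA was extracted with Trizol and labelled with biotin, per the labels' protocols. Affymetrix Expression Console is named in the submitters' processing notes; the sources used here give no version, algorithm or genome build. The log2 scale was inferred from the values.

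Of 41345 probe sets, 23521 had 1 gene symbol in the platform annotation, 1814 had several and 16010 were not listed there. A gene was represented by its probe set with the highest mean. The filter and the 2-fold rule are those given above. The members and lists were chosen with earlier results of these data known. Genes named were the 6 members, from each list by role every kept gene past 2-fold and the 2 highest and 2 lowest, the highest and lowest of each marker list, and 10 fixed genes (Fcer1a, Fcer1g, Kit, Il1rl1, Il3ra, Csf2rb, Gata1, Mitf, Il4 and Il13). Chromosomal neighbours, genes under the filter level the dendritic cell markers Itgax, H2-Ab1 and Zbtb46, and Prg3 and Flt3 were named after their values were seen. All 6 members had their gene identifier and symbol in a RefSeq table of GRCm38.p6. The counting was tested on simulated data. A planned comparison of protein sequences was not run. Python 3.11.15, numpy 2.4.6, pandas 2.3.3 and statsmodels 0.14.6 were used.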

Additional observations from a re-analysis of the deposited data

How the results depend on the processing

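Alternatives were quantile normalization, a subtracted lowess curve (fraction 0.3, 3 iterations), centring on kept genes, averaging a gene's probe sets, low values raised to the filter level, 3 other filters, and 1.5-fold and 3-fold limits. Differences of the 6 genes kept their sign under the first 5, from -2.82 to -2.42 for Cpa3, -1.38 to -1.26 for Prss34 and -0.55 to -0.41 for Mcpt8. Ms4a2 ran from -0.30 to -0.23 and Gata2 from -0.15 to -0.08. Hdc was 1.96 with low values raised to the filter level, by construction, and up to 3.0 otherwise. At 3-fold, 1 of the 6 was lower (Cpa3) instead of 2, and 1 was still higher (Hdc). Over all genes, 2458 were lower and 2274 higher at 1.5-fold, and 290 and 568 at 3-fold. In the lists by role, 16 were lower and 24 higher at 1.5-fold, and 4 were lower and 10 higher at 3-fold. The median of transcription factors turned to -0.13 and that of receptors was 0.93 with the filter at the 75th percentile. The mediator median turned to -0.14 with the mean of probe sets. That of proteases was 0.58 with the mean of probe sets, where Hpse has a second probe set at 2.32 beside 0.16, and turned to -0.12 without a filter and -0.08 with a filter on the mean. With 1 array per condition, no replicate could be left out. No paired analysis was possible because each condition has 1 sample.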
